A study of Salmo salar with 34 samples.

Results

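High and low dietary levels of organic trace minerals (OM) were compared in the midgut of male Atlantic salmon. The fish were chosen by their sample labels alone: 6 males at the high OM level (fish 1, 2, 4, 5, 6 and 7) and 5 males at the low OM level (fish 2, 3, 4, 5 and 6), which makes 11 of the 34 arrays of the series. All were post-smolts kept in sea water and fed for 12 weeks, with copper, iron, manganese, selenium and zinc supplied in organic form, so that both groups received the same mineral source and there was no unsupplemented group. By the study's account, all tanks also went through repeated handling stress and, in the last weeks, reduced oxygen. The rest of the series are females at the same OM levels and fish of both sexes given inorganic minerals (IM). Which numbered diets of the trial stand behind high and low cannot be read from the labels. No tank was known for a fish, so that fish of a shared tank counted as independent. The p-values below therefore describe the spread between these samples.

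Trace minerals are taken up mainly through the gut wall, by metal transporters of the enterocytes, and serve as cofactors of antioxidant enzymes, of the respiratory chain and of enzymes of lipid and protein metabolism. In the organic form the minerals are bound to peptides, amino acids or yeast rather than given as inorganic salts. In this trial those were sulphates and, for selenium, sodium selenite. The midgut of salmon also holds immune cells and smooth muscle, and its RNA is a mixture of all of these. In such bulk RNA, fewer cells of a type and less RNA per cell cannot be told apart. Each array carried 14841 probes, 1 spot each, known by identifiers that the files do not pair with gene names. As 0 of these identifiers matched the RefSeq gene list for salmon, values are given per probe, the labelled tissue was not checked against marker genes, and no functional group of genes was counted.

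Before any comparison, the 11 arrays were set against each other and against the other 23. On the 6548 probes that all 34 arrays detected well above the background, high OM males 4 and 7 were the most alike of all 561 pairs (Pearson r = 0.995), although they lay on different slides. Their difference had a standard deviation (SD) of 0.937 times the error that the scanner software gives for it, while the next pair of the series had 1.43 times. These 2 arrays thus differed by less than the measurement noise and were counted as 1 sample, by their mean, which left 5 samples at each level. Values with both counted separately are given beside the main counts, since they differ widely. The array most like high OM male 1 was that of a low OM female (r = 0.988, 1.44 times the scanner error), the third closest pair of the series. The second closest was a low IM female with low IM male 1. Whether such pairs across labels come from the same RNA or from exchanged labels was not tested. The counts of called probes that rest on them, and the shares in IM males, are also given without them. The shares in OM females and the correlations between fold changes are given only with them.

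The high OM males resembled each other more than the low OM males did. Over the 12218 probes tested, Pearson r was between 0.941 and 0.993 (median 0.958) for pairs of high OM males and between 0.760 and 0.950 (median 0.896) for pairs of low OM males. Low OM male 6 stood apart, with r from 0.760 to 0.873 to the other 10 arrays. Without it, pairs of low OM males had r from 0.896 to 0.950 (median 0.906), while the lowest pair of high OM males had 0.941. Low OM male 4 lay closer to the high OM males (median r = 0.953) than to its own group (median r = 0.903).

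**Figure D1:**
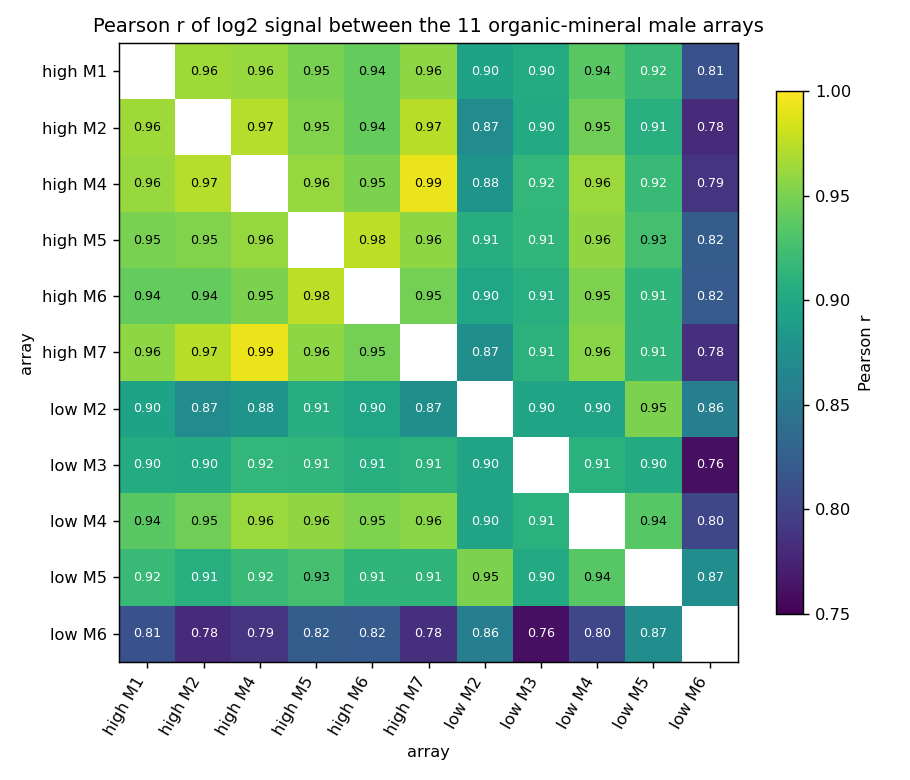
Pearson r of the log2 signal between each pair of the 11 arrays, with high OM males (high M) first and low OM males (low M) last, each array on both axes. The probes are those tested with no outlier spot on any of the 11 arrays. High M4 and high M7 have r = 0.993 over them, and low M6 has the lowest values, from 0.760 to 0.873.

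The first principal component of the 10 samples held 40.4% of the variance and the second 21.4%. On the first, low OM male 6 scored 134, followed by low OM males 2 (51.0) and 5 (34.4), and low OM male 3 lay at the other end (-70.1). The high OM males took a narrow range in between, from -44.8 to -19.7, and low OM male 4 had -6.73. The scatter of the low OM group also held probe by probe: the SD between fish was larger at the low level for 85.9% of the probes, or 80.3% without low OM male 6, with a median SD of 0.343 log2 units at the high and 0.667 at the low level.

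The arrays also differed in brightness. The 75th percentile of the signal over all probes was 123 to 308 intensity units in high OM males and 225 to 863 in low OM males. The scaling used the percentile of the spots left once outlier spots were dropped. On low OM male 2 that value was lower than 863, so its levels came out higher. Well above the background were 10349 to 12537 probes in high and 10630 to 13682 in low OM males. The difference of the means was -253 intensity units (two-sided exact permutation test over 5 against 5 samples, p = 0.0556, adjusted p = 0.132 over 5 array measures) and -1238 probes (exact p = 0.0794, adjusted p = 0.132), where 0.00794 is the smallest p this design can give. Low OM male 2 was the brightest array by this percentile and had 818 spots marked as outliers by the software, against 5 to 200 on the others. By the same permutation test, the median r to the other arrays was 0.945 in high and 0.893 in low OM males (exact p = 0.0159, adjusted p = 0.0794). The SD of the log2 signal (exact p = 0.548) and the negative controls over background (exact p = 0.349) were the remaining measures. The part of all these measures in the results below was not tested beyond the alternatives given.

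Probes were called by the criteria of the study, a log2 fold change beyond 0.81 in either direction with p under 0.05 before adjustment (limma). By these, 1895 of 12218 probes (15.5%) differed between high and low OM males. Of these, 652 (5.34%) were higher and 1243 (10.2%) were lower at the high level. After Benjamini-Hochberg adjustment over all probes, 24 (0.196%) passed an adjusted p of 0.05, 2 of them higher (0.0164%) and 22 lower (0.18%). With high OM males 4 and 7 counted separately, 2090 probes (17.1%) met the criteria and 712 (5.83%) passed the adjustment, 215 higher and 497 lower, including all 24. Treating the near-identical arrays as 2 fish thus raised the adjusted count from 24 to 712, while the median standard error went from 0.349 to 0.322.

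The balance between higher and lower probes depended on the scaling and on the outlier spots. With the scaling used, all probes together had a median log2 fold change of -0.17, and relative to this median 783 probes were higher and 881 lower by the same criteria. Lower probes made up 65.6% of those called, but 47.0% when arrays were scaled to their median, 42.5% after quantile normalisation, 38.8% with the authors' processed values and 17.2% after the normexp background correction, which moved the median of all probes to 0.28. With outlier spots kept in the fit, lower probes made up 55.3% of those called and the median of all probes was -0.08. No single direction of the response in males can therefore be given. The 24 probes that passed the adjustment kept their sign under the first 3 of these and with outlier spots kept, and 19 of them did under normexp.

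**Figure D2:**
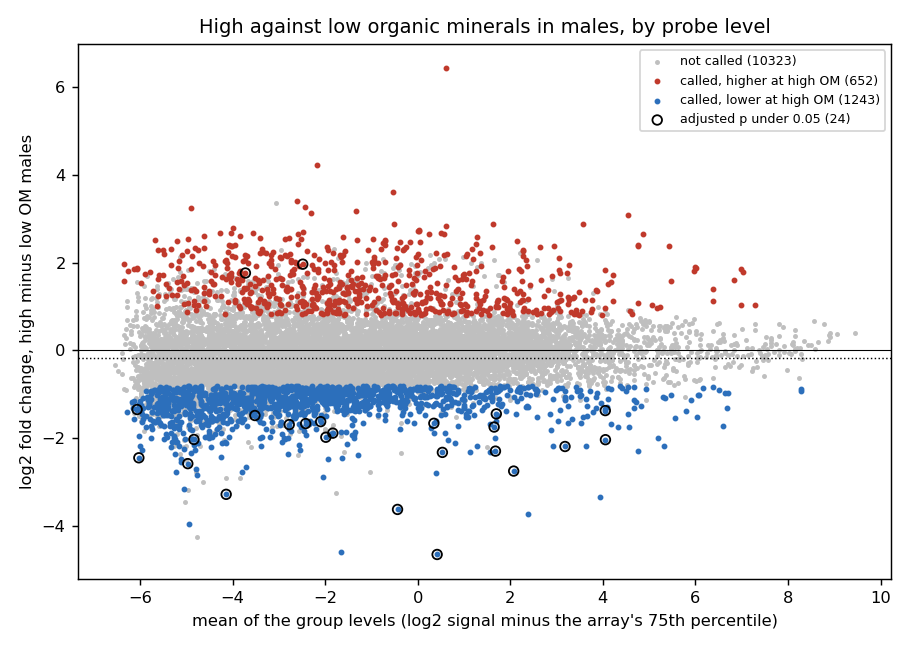
Log2 fold change of each of the 12218 probes (high minus low OM males, vertical axis) against its mean level (log2 signal minus the array's 75th percentile, horizontal axis). Red and blue points are the 652 higher and 1243 lower probes, circles mark the 24 that passed the adjustment, and the dotted line is the median of all probes (-0.17).

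Over all 12218 probes tested, the median absolute log2 fold change was 0.444, and 246 changed over 4-fold. Among the 1895 probes, which had to exceed 0.81, the median was 1.19. Of these, 205 changed over 4-fold, 136 of them higher and 69 lower. The higher probes had a median log2 fold change of 1.40 (range 0.81 to 6.43) and the lower ones of -1.14 (range -4.65 to -0.81). The higher probes had a median SD of 1.04 in low and 0.284 in high OM males, against 0.649 and 0.424 for the lower ones. The levels of all high fish lay above those of all low fish for 345 of the tested probes (2.82%) and below them for 595 (4.87%), 940 in all (7.69%). Among the probes called by the criteria these numbers were 185 of 652 and 431 of 1243.

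The 2 probes with the largest fall and the 2 with the largest rise among the 24 are described by sample. Levels are log2 signals relative to the 75th percentile of the array and are compared only within a probe. The largest fall was that of Ssa#GRASP209156075. Its level was -0.67 in high OM male 1, -1.80 in male 2, -2.47 in male 4, -2.53 in male 5, -1.70 in male 6 and -3.17 in male 7. At the low level it was 2.20 in male 3, 1.96 in male 4, 3.54 in male 5 and 3.27 in male 6, while the spot of low OM male 2 was marked as an outlier and dropped from the fit. The groups were thus far apart, with high OM male 1 and low OM male 4 nearest to each other. The mean was -1.91 ± 0.84 (SD, n = 5) against 2.74 ± 0.78 (SD, n = 4), which gave a log2 fold change of -4.65 ± 0.50 (standard error) with a limma adjusted p of 0.0178.

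Probe Ssa#S31963885 had the next largest fall and the lowest adjusted p of all. In high OM males 1, 2, 4, 5, 6 and 7 its level was -1.50, -1.98, -2.47, -3.11, -2.22 and -2.39. In low OM males 2, 3, 4, 5 and 6 it was 1.21, 1.09, 0.81, 1.89 and 1.86. All low fish lay above the percentile used for scaling and all high fish below it, with no overlap. The log2 fold change was -3.62 ± 0.33 (standard error) with a limma adjusted p of 0.00572, from 1.37 ± 0.48 (SD, n = 5) to -2.25 ± 0.60 (SD, n = 5), a 12.3-fold difference. Both probes that fell were well above the background on every array.

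The rises were smaller than these falls. Ssa#S30283329 had levels of -0.87, -1.35, -1.81, -1.69, -1.83 and -1.74 in high OM males 1, 2, 4, 5, 6 and 7, and of -3.61, -4.06, -2.83, -3.90 and -2.95 in low OM males 2, 3, 4, 5 and 6. Low OM males 4 and 6 came nearest to the high group and stayed below its lowest fish, male 6. It rose by 1.97 ± 0.31 (standard error) on the log2 scale with a limma adjusted p of 0.0417, from -3.47 ± 0.56 to -1.50 ± 0.40 (SD, n = 5 each).

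Ssa#BU693969 had levels of -2.51, -2.22, -3.23, -2.97, -3.22 and -3.34 in the same high fish and of -4.09, -4.60, -4.63, -4.51 and -5.21 in the low ones. On this scale the groups did not overlap, with high OM male 7 and low OM male 2 nearest to each other. It rose by 1.76 ± 0.28 (standard error) with a limma adjusted p of 0.0426, from -4.61 ± 0.40 to -2.84 ± 0.46 (SD, n = 5 each). Its signal cleared the background on 4 of the 5 low arrays, the exception being low OM male 6, so its level there is only an upper limit. Before scaling, the intensities of both probes that rose overlapped between the groups. They were 34.4 to 138 units in high and 19.3 to 81.5 in low OM males for Ssa#S30283329. For Ssa#BU693969 they were 13.1 to 63.0 and 5.93 to 36.5 units. Those of the 2 probes that fell did not overlap. All 4 probes kept their direction and stayed called by the criteria of the study in each alternative in which they were measured. With single arrays left out, the limma adjusted p stayed under 0.05 for Ssa#S31963885 (highest 0.0356), while it reached 0.0808 for Ssa#GRASP209156075, 0.139 for Ssa#S30283329 and 0.134 for Ssa#BU693969. With the fish number as a block it was 0.129 for all 4. With the slide as a fixed block it was 0.470 for both probes that rose. These adjusted calls were lost there. For Ssa#BU693969 it was also 0.0522 with normexp, 0.0830 with quantile normalisation and 0.0930 with the median as scale, where Ssa#S30283329 stayed under 0.05. Without the filter on dim probes it was 0.0697 for Ssa#BU693969 and 0.0668 for Ssa#S30283329. Without moderation of the variances Ssa#S30283329 had 0.0505. Both probes that fell stayed under 0.05 with normexp, these scalings, no filter and no moderation.

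**Figure D3:**
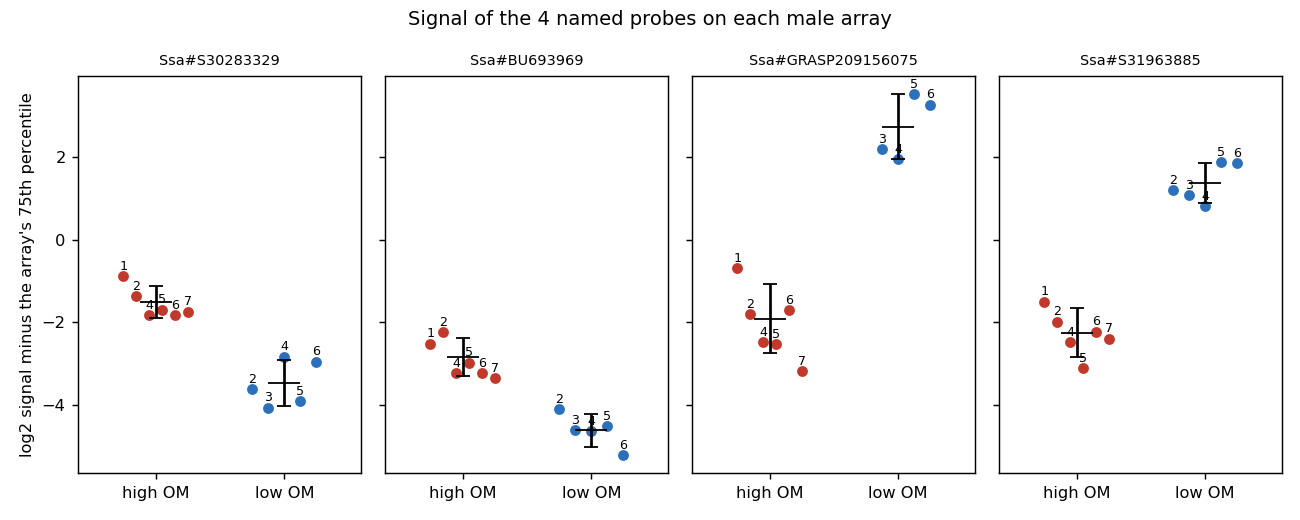
Log2 signal minus the array's 75th percentile for the 4 named probes in high OM (red) and low OM (blue) males, 1 point per array with the fish number, and the mean ± SD of the samples (males 4 and 7 averaged) in black. On this scale the groups do not overlap for any of the 4, and the falls of 4.65 and 3.62 log2 units exceed the rises of 1.97 and 1.76.

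The other 20 probes past the adjustment were all lower at the high level. Over all 22 lower ones the log2 fold changes ran from -4.65 to -1.34, and their adjusted p-values, with those of the 2 higher ones, from 0.00572 to 0.0486. High and low fish did not overlap for any of the 24, against 7.69% of all probes tested. As these same samples chose the 24, that is a description and no support. Of the 24, 18 were well above the background on all 11 arrays. The list was not one of dim probes only, as 11 of the 24 lay above the median of the tested probes by mean level. For 1 of them, no high OM array was well above the background, so only a bound can be given for its fall.

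By level, calls were more frequent among dim probes. When the 12218 probes were divided into 4 equal bins by mean level, 17.8%, 17.6%, 13.4% and 13.2% met the criteria from the dimmest to the brightest bin. Lower probes went from 13.6% in the dimmest to 7.14% in the brightest bin, whereas higher ones went from 4.22% to 6.06%. The median log2 fold change of the bins was -0.39, -0.26, -0.13 and -0.01, so that the brightest bin was centred near 0. Without low OM male 6 the medians were -0.05, -0.15, -0.14 and -0.04, lower probes went from 10.9% in the dimmest to 7.04% in the brightest bin, and higher ones from 5.92% to 4.48%. The trend of the higher probes thus turned with this 1 array, while that of the lower ones kept its direction. Among the 100 brightest probes, 10 were called, 5 higher and 5 lower, with log2 fold changes from -1.31 to 1.86, and 0 passed the adjustment (limma).

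Detection was counted over all probes. Of all 14841 probes, 9378 were well above the background on all 11 arrays and 593 on none. On the low OM side, 1356 probes were detected in at least 1 low fish and in no high fish, and 320 of these in low OM male 6 alone, against 15 to 204 in each of the other low fish alone. The reverse pattern, detection in high fish only, was found for 55 probes. Full on-off patterns were rare: 15 probes were detected in all low and no high fish, 26 when low OM male 6 was left out, and 0 in all high and no low fish. All of these 15 were called lower, and 1 of them is among the 24 past the adjustment. They entered the test through the low fish alone, so these calls are a description and no support. The low OM arrays were the brighter ones, as given above, and the part of brightness in these counts was not tested.

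Which fish entered the fit moved the first count less than the second. Without low OM male 6, 1803 probes (14.8%) met the criteria, 623 higher and 1180 lower, and 18 (0.147%) passed the adjustment. Of the 1895 probes, 1466 (77.4%) were also called without this fish, which is 81.3% of the list made without it, all 1895 kept their sign, and 14 probes passed the adjustment in both. With each array left out in turn the first count was between 1462, without low OM male 2, and 2529, without low OM male 3. The adjusted count fell to 1 without high OM male 2 or 6, to 2 without high OM male 5 or low OM male 5 and to 10 without high OM male 1. It rose to 49 without high OM male 4, to 286 without low OM male 3 and to 1021 without low OM male 4, the fish nearest to the high group. With high OM males 4 and 7 both left out 1 probe passed. The 24 probes kept their direction in each of these fits.

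**Figure D4:**
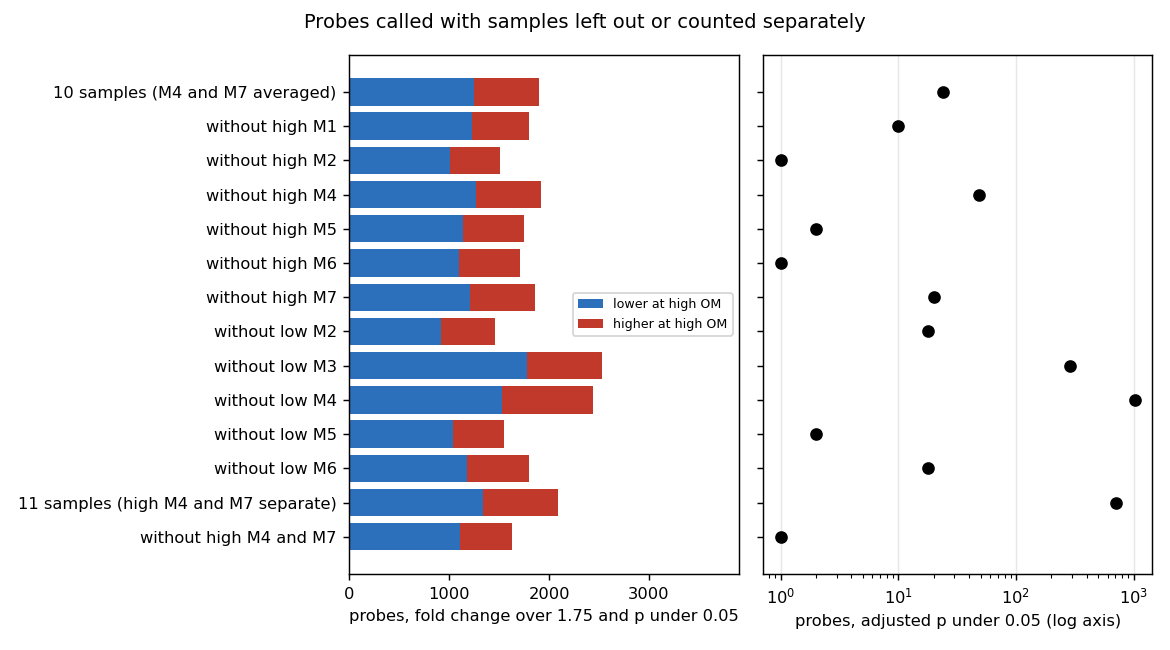
Probes called between high and low OM males with the samples named on the vertical axis left out or counted separately. Left, number called by the criteria of the study, lower (blue) and higher (red) at high OM; right, number at an adjusted p under 0.05 on a log axis, from 1 to 1021, with 24 for the 10 samples and 712 for 11.

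The 11 arrays were scanned on 1 day and lay on 5 slides, of which 2 held both groups. On slide 5 (high OM males 4 and 5, low OM males 3 and 4), 88.2% of the 652 higher probes were higher and 97.8% of the 1243 lower probes were lower, with median differences of 0.65 and -0.72. On slide 6 (high OM male 6, low OM males 5 and 6) the shares were 98.3% (of the 648 measured there) and 98.8%, and the medians 1.78 and -1.36. As these arrays took part in choosing the probes, the shares are a description and no support. Differences on slide 5 were thus smaller than those on slide 6 for either direction. Over all probes tested, the median difference was 0.10 on slide 5 and -0.33 on slide 6, so the slides did not share the shift towards lower signal. The 22 lower probes past the adjustment were lower on both slides. With the slide as a fixed block, where the array of high OM male 4 stood for the pair, 942 probes met the criteria, 777 of them among the 1895, and 2 passed the adjustment.

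The fold changes of these males were then set against fish that took no part in choosing the probes. In males given IM, with 2 fish at the high and 3 at the low level, 93.7% of the 652 higher probes were also higher at the high level (median log2 fold change 0.66) and 94.6% of the 1243 lower ones were also lower (median -0.69). Over all probes tested 41.4% were higher and 58.6% lower there. Of the 22 lower probes past the adjustment, 20 were lower in IM males, with a median of -0.69. Without low IM male 1 of the close pair, 93.1% of the higher and 88.3% of the lower probes, and 18 of the 22, kept these directions, against 41.9% higher and 58.1% lower over all probes. Pearson r between the log2 fold changes of OM and IM males was 0.571 across the 12218 probes, which are not independent replicates. The difference between the responses of OM and IM males was itself tested in a limma fit of the 16 male arrays. It passed the adjustment at 0 of 12659 probes (0%), with 116 at p under 0.05 before adjustment, and at 0 without low IM male 1 (166). Both counts before adjustment were below what p under 0.05 gives by chance for independent probes. For this reason, and with 2 fish in the smallest group, the 0 does not show the responses to be alike. Both high IM males lay on slide 4 and the low IM males on slides 4, 5 and 6. Level and slide therefore cannot be fully told apart in IM males.

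In OM females, with 3 fish at the high and 6 at the low level, the same probes did not separate the levels. There, 62.6% of the 652 higher probes were higher (median log2 fold change 0.11) and 43.6% of the 1243 lower probes were lower (median 0.15), against 52.7% and 47.3% of all probes tested. Across all probes r was -0.196. The response to the OM level differed between males and females at 1208 of 12850 probes (9.4%, limma adjusted p under 0.05), with a higher log2 fold change in males at 87 and a lower one at 1121. After quantile normalisation the split was 383 and 742. The count was 0 by limma with normexp (1552 at p under 0.05 before adjustment) and 0 with the slide as a fixed block (2209). It was 173 without high OM female 3, 715 without high OM male 2 and 2391 without low OM male 3. OM females lay on slides 1, 2, 3 and 7 and OM males on slides 3 to 7. As the sexes shared only slides 3 and 7, sex and slide cannot be fully told apart. The series was scanned on 2 days, and scan day was not part of this fit. Of the named probes, 2 of 4 were among the 1208. All 4 were chosen by their change in OM males, and that choice can enlarge their differences from females. Outside the 1208, Ssa#GRASP209156075 had a log2 fold change of -2.21 in IM males and -0.63 in females. Its difference, OM males minus females, was -4.01 ± 1.43 (standard error, limma adjusted p = 0.0829). Ssa#BU693969 had 1.87 in IM males and 0.75 in females, a difference of 1.02 ± 0.61 (standard error, limma adjusted p = 0.307). For Ssa#S31963885 the log2 fold change was -0.38 in IM males and -0.08 in females, the latter a difference from OM males of -3.54 ± 1.07 (standard error, limma adjusted p = 0.0453), and for Ssa#S30283329 it was 0.56 in IM males and -0.15 in females, a difference from OM males of 2.12 ± 0.48 (standard error, limma adjusted p = 0.0159). With high OM male 1 and the low OM female closest to it both left out, 1344 probes differed between the sexes, and the adjusted p was 0.0264 for Ssa#S30283329 and 0.0549 for Ssa#S31963885, which was then no longer past the threshold.

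A balance of the called probes was taken for each fish. The mean level of the 652 higher probes minus that of the 1243 lower ones was 2.28 to 2.78 log2 units in the 5 high OM samples, a narrow range. In low OM males it was -1.17 in male 2, 0.37 in male 3, 1.31 in male 4, -0.83 in male 5 and -1.12 in male 6. The gap between these groups follows from the choice of the probes. That choice also affects where other fish lie relative to them, so only the order of levels within the other groups is independent of it. The balance was 2.44 and 2.67 in high IM males and 0.81 to 1.40 in low IM males, with no overlap. These high fish lay on slide 4 only and the low ones on slides 4, 5 and 6, so the order may also follow the slide, which was not tested. OM females had 1.40 to 2.23 at the high and 1.71 to 2.24 at the low level, and these ranges overlapped.

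**Figure D5:**
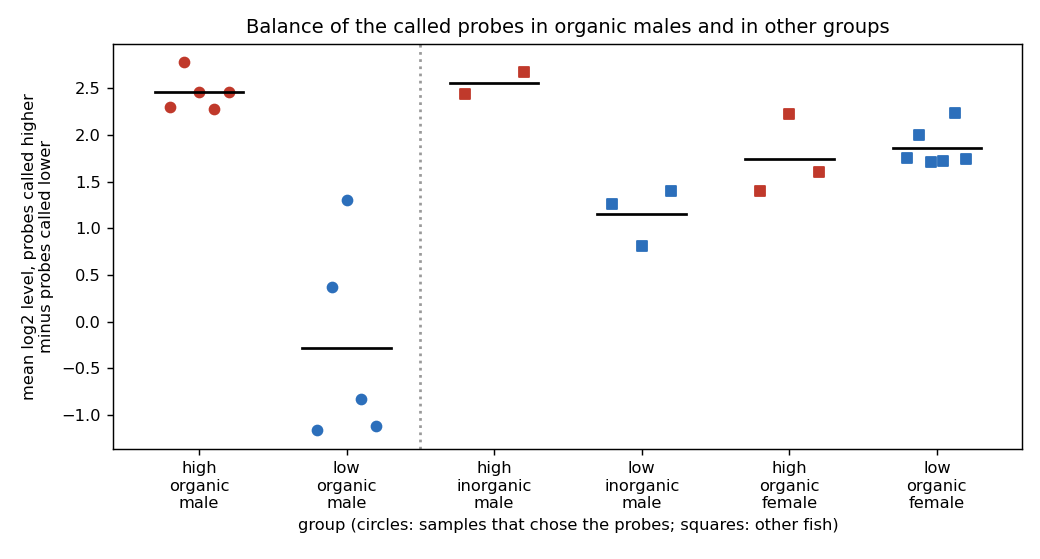
Mean log2 level of the 652 probes called higher minus that of the 1243 called lower, 1 point per sample, by group (red high, blue low), with group means as lines. Circles are the OM males that chose the probes and squares are other fish; high IM males (2.44 and 2.67) lie above low IM males (0.81 to 1.40), and OM females overlap.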

How the data were processed

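Midgut RNA of 1 fish per one-colour (Cy3) array was measured, and arrays were grouped by the sample labels. The authors deposited scanner files with the intensity of each spot from Feature Extraction 12.0.1.1, background-subtracted and not scaled between arrays, and a table of intensity values processed with STARS. Processed signals were taken to log2 and each array was set to 0 at the 75th percentile of its kept spots. Control spots and 1334 outlier spots on the 11 arrays were left out; 0 were saturated. A probe entered the test where 5 or more of the 11 arrays had it well above the background, with limma 3.58.1 in R 4.3.3 without covariates. The fit was run on simulated data with known changes. Its noise was independent and equally wide in both groups, unlike these arrays, so that run does not cover the wider low OM group.

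High OM males 4 and 7 were planned as separate samples and were averaged after their likeness had been seen. Scaling, background correction, filters, blocks, variance models, array weights and single arrays left out were tried as alternatives. Named probes were those with the largest changes among the adjusted calls, 2 per direction. The samples and tests were chosen with earlier results of these data known. All 11 arrays were scanned on 1 day, so no scan day block was run. The whole series was scanned on 2 days, and fits with other groups had no scan day block either.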

Additional observations from a re-analysis of the deposited data

Results flagged for a closer look

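Low OM male 2 carried 818 outlier spots by the scanner software's own marks, the next in its group carrying 200. This was 1 of 24 groups of values examined for an array far from the others, where chance gives about 1 in 20. With outlier spots kept in the fit, 150 probes in place of 24 passed the adjustment (limma).

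The response to the OM level differed between males and females at 1208 probes (limma adjusted p under 0.05 for the difference). With the slide as a fixed block the count was 0, and the sexes shared only slides 3 and 7. Among the named probes that passed, the difference of the log2 fold changes, males minus females, was 2.12 for Ssa#S30283329 and -3.54 for Ssa#S31963885. The latter had a limma adjusted p of 0.0549 once high OM male 1 and the low OM female most like it were left out. The named probes were chosen by their change in the same males, and that choice can enlarge these differences.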

How the results depend on the processing

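The number of probes called by the criteria of the study (1895) stayed within 1.5 times under the alternatives, except 942 with the slide as a fixed block and 2911 with array weights. It was 1462 to 2529 with single arrays left out. The probes tested were 12218 in the main fit. They were 14841 without the filter and with the authors' processed values, and 9378 with detection required on all 11 arrays. A similar number did not mean the same list. Of the 1895 probes, 854 were still called with normexp and 1305 kept their sign there. Still called were 1292 with quantile normalisation, 1185 with the authors' processed values and 777 with the slide as a fixed block. The adjusted count (24) moved with most choices. Of 12218 probes, it was 99 with normexp (offset 50), 44 with quantile normalisation and 6 with the median as scale. On the same base it was 1034 with all 34 arrays in the fit and 2 with the slide as a fixed block. It was 47 without moderation, 183 with a variance trend and robust moderation, 3543 with array weights and 150 with outlier spots kept. On other bases it was 12 of 14841 probes without the filter. It was 210 of 9378 when each probe had to be well above the background on all 11 arrays. With single arrays left out it was 1 to 1021. Chosen after seeing the data, counting high OM males 4 and 7 separately gave 712, the same without low OM male 6 gave 508, and leaving out both gave 1. The count of probes that differed between the sexes (1208 of 12850) was 0 with normexp and 0 with the slide block. It was 176 of 8261 with detection required on all 20 OM arrays. It was 1618 with males 4 and 7 counted separately, and 173 to 2391 with single arrays left out. The cause was not tested. The spread between fish was larger for dim probes, with a median SD of 0.544 at the high and 1.18 at the low level in the dimmest of 4 bins against 0.223 and 0.449 in the brightest.

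Fish numbers 2, 4, 5 and 6 recur in both groups. With the fish number as a replicate block, 2654 probes met the criteria and 0 passed the adjustment (limma, 2949 at p under 0.05 before adjustment). Same-numbered arrays had deviations with r of -0.145, 0.249, -0.051 and 0.094, with 1 of 4 pairs above 0.1, so the numbers were not taken as a pairing. The pairs of fish 4 and 6 each shared a slide and those of fish 2 and 5 did not. Slide and fish number therefore cannot be told apart in these values.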
